A study of Mus musculus with 19 samples.

Results

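The genes of sterol and fatty acid synthesis were described as a set of 35, made up of the enzymes from acetyl-CoA to cholesterol, the proteins that sense sterol, 2 lipid carriers, and the enzymes that make, desaturate and elongate fatty acids. The set was given as a list of symbols, and each gene was read from its brightest probe set that carries a single symbol. Of the 35, 32 were measured among 22180 genes on the spleen arrays and 31 passed a filter on dim genes, as did 12875 of all genes. On the skin-draining lymph node (SDLN) arrays 34 were measured among 19938 genes and 33 passed, as did 11931 of all genes. Acat2 in both tables, and Idi1 and Scd2 in spleen, were not analysed here. Scd1 in spleen and Lss in SDLN were measured and fell below the filter. Elovl6 was named in the list for its dependence on Batf3 in resident cells, so its lymph node values from resident arrays are given as a description with no test.

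In mammalian cells cholesterol is built from acetyl-CoA through mevalonate, isoprenoids, squalene and lanosterol, and fatty acids are built from the same precursor through malonyl-CoA. When membrane sterol is low, SCAP carries the transcription factors SREBP-1 and SREBP-2 from the endoplasmic reticulum to the Golgi for cleavage, and the INSIG proteins hold SCAP back when sterol is plentiful. SREBP-2 is best known for driving sterol genes and SREBP-1 for driving fatty acid genes. Dendritic cells need lipid for membrane growth, and lipid stores in these cells are known to affect antigen presentation.

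Gene expression was measured on arrays in DC1, the conventional dendritic cells that depend on IRF8 and present antigen to CD8 T cells. The cells were sorted from C57Bl/6j mice, WT or Batf3-/-. The lymph node table, from inguinal, cervical and brachial nodes pooled as SDLN, held only cells positive for Irf8VENUS, a fluorescent reporter of Irf8. Its groups were migratory Batf3-/- DC1 (3 arrays), resident Batf3-/- DC1 (3), migratory WT DC1 (2) and resident WT DC1 (3), with migratory cells gated as MHCIIhi CD11cint and resident cells as MHCIIint CD11chi. The spleen table, of another array type and from female mice, held Batf3-/- Irf8VENUS+ DC1 (3), WT Irf8VENUS+ DC1 (3) and WT Irf8VENUS- DC1 (2). Replicate 3 of each Irf8VENUS+ spleen group came from a CD24 gate without XCR1, unlike the remaining 6 spleen arrays, and the gate was a term in the spleen fit. The spleen protocol lists CD172a+ and the lymph node protocol CD172-, but Sirpa, the gene of CD172a, read only 5.35 to 5.84 on the spleen arrays. The tables were normalized separately and were compared only within themselves.

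Several arrays stood apart before any member was tested. The standard deviation of all probe sets was 2.07 to 2.16 on migratory Batf3-/- and 1.96 to 2.03 on migratory WT arrays, against 2.16 to 2.23 on resident Batf3-/- and 2.21 to 2.22 on resident WT arrays. Replicate 3 had the lowest value of its group among migratory Batf3-/- arrays, 2.07. Batf3 was low in each Batf3-/- group, with means of 6.02 and 5.74 in migratory and resident cells, against 9.19 and 8.38 in WT. The defining DC1 genes were far dimmer on migratory arrays: all 8 fell in both genotypes, and their mean level was 6.97 to 7.02 in migratory against 10.18 to 10.23 in resident Batf3-/- DC1, and 7.21 to 7.93 in migratory against 10.67 to 10.89 in resident WT DC1. All 6 measured genes of migratory dendritic cells, Ccr7 and Fscn1 among them, rose in both. Markers of B cells rose in 7 of 7 cases in migratory over resident WT DC1, with a mean level of 5.93 to 6.56 against 4.37 to 4.72, and in 1 of 7 in Batf3-/- DC1, with 4.78 to 5.83 against 4.65 to 4.90. T cell markers rose in 3 of 6 cases in WT and in 0 of 6 in Batf3-/- DC1. Of 3 tested macrophage and monocyte markers C1qa and C1qb rose in Batf3-/- DC1 and 0 rose in WT DC1. Cldn1, the 1 tested Langerhans cell marker, fell in both genotypes. The gate excluded B220+ cells. The part of these markers and of the array spread in the results below was not tested. Since sorted cells were measured in bulk, fewer cells of a type and less RNA per cell cannot be told apart. Resident WT replicate 1 had a Sirpa level of 7.82, above the 5.31 and 5.67 of the other two.

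Of the 7 tested early sterol genes, from acetoacetyl-CoA to squalene, 5 were higher in migratory than in resident Batf3-/- DC1 and 4 in WT DC1, and none passed as lower. Of the 9 tested fatty acid genes other than Elovl6, 5 were lower and 0 higher in migratory Batf3-/- DC1, and 7 were lower and 1, Scd1, was higher in migratory WT DC1. Over all steps in Batf3-/- DC1, 16 of the 32 tested members other than Elovl6 passed the test between migratory and resident cells at an adjusted p under 0.05 (limma, Benjamini-Hochberg over all genes), 8 higher and 8 lower, where 36.6% of all tested genes passed, 14.1% higher and 22.6% lower. In WT DC1, 21 of the 32 passed, 8 higher and 13 lower, where 49.2% of all genes passed, 16% higher and 33.2% lower. These fits did not pair the arrays. With the title code, which lymph node arrays of the same replicate number share, as a block in the fit, the counts were 18 and 22 of 32. Over all 11931 genes 4664 and 6364 passed with that block. The median difference of the 32 was 0.13 in Batf3-/- and -0.20 in WT DC1 on the log2 scale, against all-gene medians of -0.02 and -0.16. The rise was strongest by fold for Fabp5, a fatty acid binding protein, and for Idi1, the isomerase that supplies both building blocks of isoprenoids. The fall was strongest by fold, Elovl6 aside, for Scd2, a desaturase, and for Fasn, the fatty acid synthase.

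The arrays of the 2 genotypes are separate, and 5 members were higher in both (62.5% of the 8 in each), namely Fabp5, Fdft1, Hmgcs1, Idi1 and Pmvk. Apart from Elovl6, 8 were lower in both, namely Acaca, Dhcr7, Elovl1, Elovl5, Fasn, Insig2, Scap and Scd2, which is 100% of the 8 in Batf3-/- and 61.5% of the 13 in WT DC1. Over all tested genes, those higher in both were 58.9% of the genes called higher in Batf3-/- and 51.9% of those in WT DC1, and those lower in both were 85.6% and 58.2%. The WT counts depended on the spread of the arrays, for members and for all genes. With each array's standard deviation as a term in the fit, 10 members were higher and 5 lower in Batf3-/- DC1. In WT DC1 5 were higher and 0, Elovl6 aside, lower. Over all 11931 genes the same fit called 1926 higher and 2058 lower in Batf3-/- DC1. In WT DC1 it called 734 higher and 528 lower, against 1903 and 3967 without the term. Under that term 3 members were higher in both, Cyp51, Fdft1 and Idi1 (30% of the 10 and 60% of the 5), and 0 were lower in both. Quantile normalization across the arrays moved the WT split to 12 higher and 10 lower and the Batf3-/- split to 11 higher and 6 lower, Elovl6 aside. No called member changed sign under it. Of the 11833 genes tested after it, 2729 were higher and 2816 lower in WT DC1, and 2043 and 2250 in Batf3-/- DC1.

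**Figure D1:**
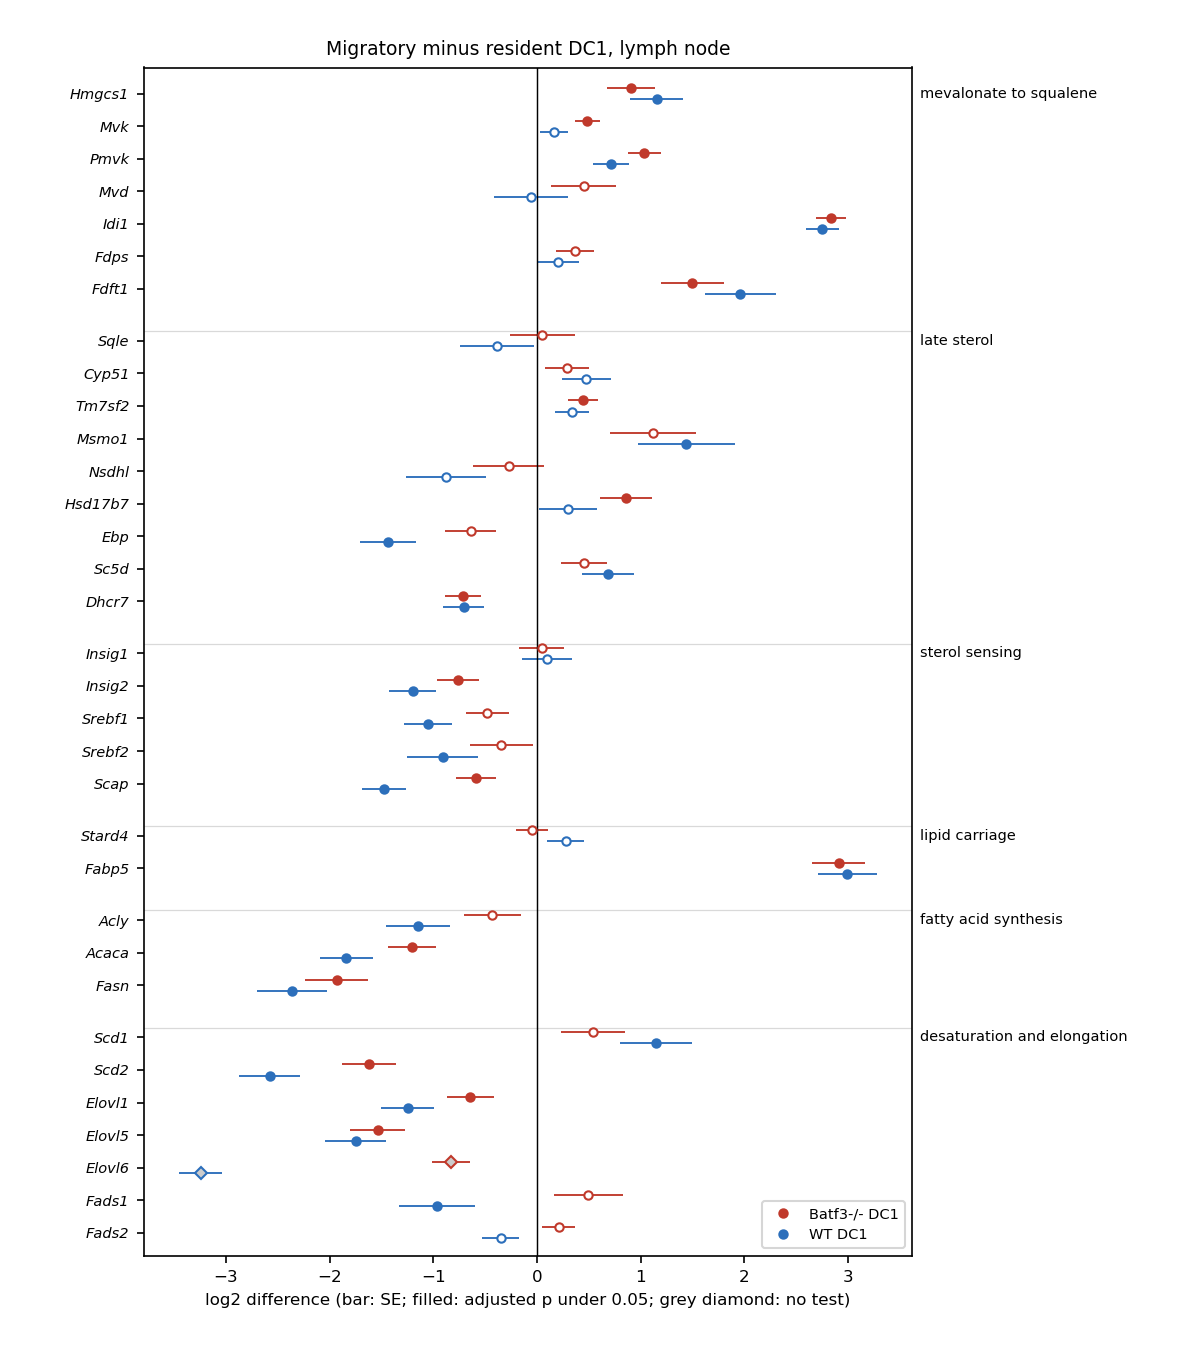
Difference between migratory and resident DC1 for each tested member on the log2 scale (horizontal axis), with Batf3-/- and WT DC1 drawn separately and members grouped by step. Points are fitted differences and bars their SE, filled points passed an adjusted p of 0.05, and grey diamonds mark Elovl6, which was not tested; Idi1 and Fabp5 lie near 3 in both genotypes, while Fasn and Scd2 lie between -1.62 and -2.58.

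The promoters of 4 members are shown because they stand for the gene groups that moved: Idi1 and Hmgcs1 for the sterol genes that were higher in migratory cells, Fasn for the fatty acid genes that were lower, and Elovl6 for the Batf3 difference. Each is RefSeq sequence of build GRCm38.p6, 250 bases before to 50 after the annotated start, read 5′ to 3′ on the gene's strand: Idi1 at chr13:8885356-8885655 (+), Hmgcs1 at chr13:119690101-119690400 (+), Fasn at chr11:120824498-120824797 (-) and Elovl6 at chr3:129532136-129532435 (+). Capitals mark letters that match, on either strand, the CCAAT box (CCAAT) or, with at most 2 mismatches in 10 letters, the consensus sterol regulatory element.
Idi1: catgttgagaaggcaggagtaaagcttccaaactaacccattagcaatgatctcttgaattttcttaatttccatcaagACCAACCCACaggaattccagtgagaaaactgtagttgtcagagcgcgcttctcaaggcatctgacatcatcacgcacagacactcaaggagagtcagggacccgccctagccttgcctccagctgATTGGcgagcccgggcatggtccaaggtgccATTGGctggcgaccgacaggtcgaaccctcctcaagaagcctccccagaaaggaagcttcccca
Hmgcs1: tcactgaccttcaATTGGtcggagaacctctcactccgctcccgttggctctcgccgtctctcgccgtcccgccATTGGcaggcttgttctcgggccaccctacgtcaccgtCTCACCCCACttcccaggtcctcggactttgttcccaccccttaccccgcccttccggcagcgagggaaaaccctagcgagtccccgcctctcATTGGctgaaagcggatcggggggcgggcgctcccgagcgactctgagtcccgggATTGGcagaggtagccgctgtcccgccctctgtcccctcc
Fasn: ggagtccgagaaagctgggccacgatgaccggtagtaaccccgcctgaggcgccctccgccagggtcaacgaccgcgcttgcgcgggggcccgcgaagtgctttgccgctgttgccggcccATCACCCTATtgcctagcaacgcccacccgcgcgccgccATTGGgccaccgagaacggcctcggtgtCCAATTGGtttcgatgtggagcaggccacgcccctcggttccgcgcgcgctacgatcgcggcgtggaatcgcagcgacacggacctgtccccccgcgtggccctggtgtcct
Elovl6: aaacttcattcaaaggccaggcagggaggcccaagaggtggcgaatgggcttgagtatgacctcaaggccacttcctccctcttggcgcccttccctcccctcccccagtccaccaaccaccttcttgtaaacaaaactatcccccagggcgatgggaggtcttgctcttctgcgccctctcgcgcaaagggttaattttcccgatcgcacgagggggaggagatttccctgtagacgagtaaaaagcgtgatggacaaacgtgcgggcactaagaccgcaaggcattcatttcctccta
The Idi1 window held 1 element match and 2 CCAAT boxes, that of Hmgcs1 1 and 4, that of Fasn 1 and 3 (of which 2 overlap), and that of Elovl6 0 and 0. Of the 27 members with a promoter in the RefSeq table, 12 (44.4%) held the element with at most 2 mismatches, against 25.4% of all 27025 genes, and 22 (81.5%) held a CCAAT box, against 41.1%. With no mismatch, 0 of the 27 held the element, against 0.0999% of all genes. Other motifs were searched too, and the Elovl6 window held none of them. The AP-1 motif was found in 2 of the 27 (7.41%), against 8.97% of all genes, and the IRF motif in 1 (3.7%), against 3.99%. An LXR motif, with at most 2 mismatches, was found in 1 (3.7%), against 3.47%. The E-box was found in 6 (22.2%), against 8.09%. A match is a description of letters and not a site of binding.

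Of the 7 tested genes from acetoacetyl-CoA to squalene, 5 rose and 0 fell in migratory over resident Batf3-/- DC1, with a median difference of 0.91, and 4 rose and 0 fell in WT DC1, with a median of 0.71. Hmgcs1 read 6.77, 7.24 and 6.16 in migratory against 5.82, 5.76 and 5.86 in resident Batf3-/- DC1, and 7.11 and 6.94 in migratory against 6.00, 5.57 and 6.03 in resident WT DC1. Hmgcs1 makes HMG-CoA, and in both genotypes its migratory arrays lay above the resident ones. Its difference was 0.91 ± 0.23 (SE) in Batf3-/- (adjusted p = 0.00766) and 1.16 ± 0.26 in WT DC1 (adjusted p = 0.00284). Pmvk read 8.45, 8.35 and 8.43 in migratory against 7.41, 7.56 and 7.15 in resident Batf3-/- DC1, and 8.29 and 8.10 in migratory against 7.36, 7.44 and 7.63 in resident WT DC1. Pmvk, which phosphorylates phosphomevalonate, was likewise higher on every migratory array, by 1.03 ± 0.16 in Batf3-/- and 0.71 ± 0.18 in WT DC1 (adjusted p = 0.000255 and 0.00572). Without migratory WT replicate 1 the WT difference of Pmvk was 0.62 with an adjusted p of 0.052. Mvk read 6.40, 6.31 and 6.28 in migratory against 5.90, 5.91 and 5.73 in resident Batf3-/- DC1, and 6.03 and 6.08 in migratory against 6.00, 5.82 and 5.85 in resident WT DC1. Mvk, the mevalonate kinase, rose in Batf3-/- DC1 by 0.48 ± 0.12 (adjusted p = 0.00714), with no overlap, while the WT difference of 0.16 ± 0.14 did not pass (adjusted p = 0.333).

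Idi1 read 6.88, 7.00 and 6.66 in migratory against 3.87, 3.91 and 4.25 in resident Batf3-/- DC1, and 6.67 and 6.76 in migratory against 4.08, 3.82 and 3.99 in resident WT DC1. Migratory and resident arrays of Idi1 were far apart in both genotypes, and the resident arrays lay below the filter level of 4.82, so Idi1 passed the filter through its migratory arrays alone and is one of the genes counted as higher above only by that route. With no filter on dim genes its adjusted p was 6.2e-08 in Batf3-/- and 2.93e-07 in WT DC1 (limma). The migratory mean was 7.13-fold the resident mean in Batf3-/- DC1 (difference 2.83 ± 0.14) and 6.72-fold in WT DC1 (2.75 ± 0.16). Set against the filter level in place of the dim resident arrays, it was at least 4.07-fold in Batf3-/- and 3.71-fold in WT DC1. Among arrays sharing a title code the difference was 2.41 to 3.09 in Batf3-/- and 2.58 to 2.94 in WT DC1. A second, dimmer Idi1 probe set gave 2.22 in Batf3-/- and 2.15 in WT DC1. Fdft1 read 9.89, 10.08 and 8.73 in migratory against 8.23, 7.71 and 8.27 in resident Batf3-/- DC1, and 9.51 and 9.88 in migratory against 7.88, 7.49 and 7.84 in resident WT DC1. Fdft1, the squalene synthase at the branch point to sterols, was higher on every migratory array, though replicate 3 of migratory Batf3-/- DC1 lay more than 1 unit below the other two. Its difference was 1.50 ± 0.30 in Batf3-/- and 1.96 ± 0.34 in WT DC1 (adjusted p = 0.00197 and 0.000583), and its second probe set gave 1.68 and 1.31. Mvd, which makes isopentenyl diphosphate, and Fdps, which makes farnesyl diphosphate, did not pass in either genotype. The Mvd difference was 0.45 ± 0.32 in Batf3-/- and -0.06 ± 0.35 in WT DC1, and that of Fdps 0.37 ± 0.18 and 0.20 ± 0.20.

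**Figure D2:**
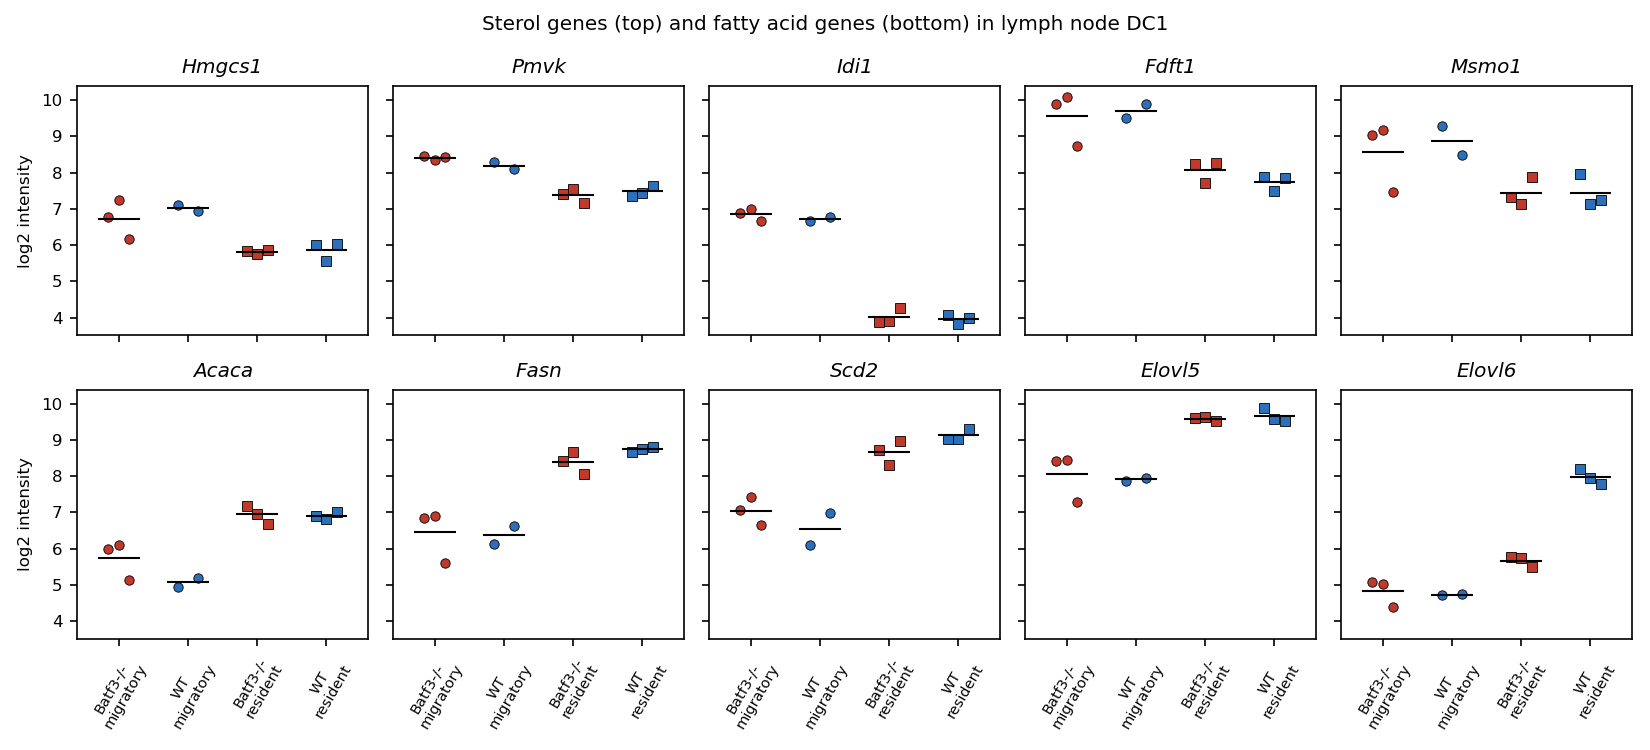
Log2 intensity of 5 sterol genes (top) and 5 fatty acid genes (bottom) on each lymph node array (vertical axis, shared by the panels), with migratory and resident DC1 of both genotypes along the horizontal axis. Points are single arrays and bars are group means; Idi1 lies at 6.66 to 7.00 on migratory and 3.82 to 4.25 on resident arrays.

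The 9 tested genes from squalene to cholesterol did not move as a block. In migratory over resident Batf3-/- DC1, 2 rose and 1 fell, with a median difference of 0.29, and in WT DC1 2 rose and 2 fell, with a median of 0.30. Msmo1 read 9.05, 9.17 and 7.46 in migratory against 7.32, 7.12 and 7.88 in resident Batf3-/- DC1, and 9.29 and 8.48 in migratory against 7.97, 7.12 and 7.24 in resident WT DC1. Msmo1, which removes methyl groups from sterol intermediates, was higher on both migratory WT arrays and on 2 of 3 migratory Batf3-/- arrays, and replicate 3 overlapped the resident ones. Its difference of 1.44 ± 0.46 in WT DC1 passed (adjusted p = 0.0221), and that of 1.12 ± 0.42 in Batf3-/- DC1 did not (adjusted p = 0.052) but did with the replicate number as a block (adjusted p = 0.0384). The WT call was lost without migratory WT replicate 1 (1.04, adjusted p = 0.191) and without resident WT replicate 2 or 3 (1.28 and 1.34). Sc5d read 7.08, 7.45 and 6.59 in migratory against 6.26, 6.64 and 6.87 in resident Batf3-/- DC1, and 7.25 and 7.21 in migratory against 6.51, 6.37 and 6.76 in resident WT DC1. Sc5d, a sterol desaturase, rose in WT DC1 by 0.69 ± 0.25 (adjusted p = 0.0371) and had a difference of 0.45 ± 0.22 in Batf3-/- DC1 (adjusted p = 0.137). The Sc5d call was lost on leaving out any 1 of 4 WT arrays, resident replicates 1 and 2 and both migratory ones, with differences of 0.60 to 0.71.

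Hsd17b7 read 5.78, 6.03 and 5.12 in migratory against 4.99, 4.78 and 4.59 in resident Batf3-/- DC1, and 5.64 and 4.71 in migratory against 5.00, 4.78 and 4.85 in resident WT DC1. Hsd17b7, a sterol ketone reductase, was above the resident range on all 3 migratory Batf3-/- arrays and overlapped in WT DC1. Its difference was 0.86 ± 0.25 in Batf3-/- (adjusted p = 0.0175) and 0.30 ± 0.28 in WT DC1 (adjusted p = 0.401). Tm7sf2 read 5.44, 5.74 and 5.43 in migratory against 4.94, 5.08 and 5.27 in resident Batf3-/- DC1, and 5.21 and 5.32 in migratory against 4.70, 5.08 and 5.01 in resident WT DC1. Tm7sf2, a sterol reductase, had differences of 0.44 ± 0.15 in Batf3-/- (adjusted p = 0.0308) and 0.33 ± 0.16 in WT DC1 (adjusted p = 0.108), with no overlap in either. Both Batf3-/- calls were lost when some single arrays were left out. For Hsd17b7 these were migratory replicates 1 and 2 and resident replicates 2 and 3, with differences of 0.66 to 0.85, and for Tm7sf2 resident replicates 1 and 2 and migratory replicate 2, with 0.34 to 0.43.

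Dhcr7 read 5.70, 5.70 and 5.18 in migratory against 5.99, 6.27 and 6.47 in resident Batf3-/- DC1, and 5.45 and 5.63 in migratory against 6.19, 6.37 and 6.17 in resident WT DC1. Dhcr7, the reductase that ends the route to cholesterol, was lower on every migratory array, with differences of -0.72 ± 0.17 in Batf3-/- and -0.71 ± 0.19 in WT DC1. The adjusted p was 0.00594 in Batf3-/- and 0.00957 in WT DC1, and without migratory WT replicate 1 the WT difference was -0.62 with an adjusted p of 0.0746. Ebp read 7.87, 8.01 and 7.59 in migratory against 8.47, 8.65 and 8.26 in resident Batf3-/- DC1, and 6.51 and 7.60 in migratory against 8.47, 8.47 and 8.54 in resident WT DC1. Ebp, a sterol isomerase, lay below the resident range on all migratory arrays of both genotypes. Its difference of -1.44 ± 0.27 passed in WT DC1 (adjusted p = 0.00102), where it turned to 0.13 with the array spread as a term. The difference of -0.64 ± 0.24 in Batf3-/- DC1 did not pass (adjusted p = 0.0561) and did with the replicate number as a block (adjusted p = 0.0335). The other tested members of this stretch did not pass in either genotype. For Sqle, the squalene epoxidase, the difference was 0.05 ± 0.32 in Batf3-/- and -0.39 ± 0.35 in WT DC1. Cyp51, the lanosterol demethylase, differed by 0.29 ± 0.21 and 0.48 ± 0.23, and Nsdhl, a sterol decarboxylase, by -0.28 ± 0.34 and -0.88 ± 0.38 in Batf3-/- and WT DC1. Lss, the lanosterol synthase, read 3.84 to 4.48 on the lymph node arrays, below the filter level.

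The sterol sensing genes were lower in migratory cells or did not pass. In Batf3-/- DC1, 2 of 5 fell and 0 rose, and in WT DC1, 4 of 5 fell and 0 rose. Scap read 7.80, 7.90 and 7.34 in migratory against 8.32, 8.43 and 8.07 in resident Batf3-/- DC1, and 6.81 and 7.20 in migratory against 8.32, 8.49 and 8.63 in resident WT DC1. Scap, the SREBP escort, was below the resident range on every migratory array, with differences of -0.59 ± 0.19 in Batf3-/- (adjusted p = 0.0298) and -1.47 ± 0.22 in WT DC1 (adjusted p = 0.00017). Insig2 read 6.92, 7.00 and 7.36 in migratory against 7.77, 8.14 and 7.65 in resident Batf3-/- DC1, and 6.62 and 6.48 in migratory against 7.41, 7.82 and 8.04 in resident WT DC1. Insig2, which retains SCAP in the endoplasmic reticulum, had differences of -0.76 ± 0.20 (adjusted p = 0.0105) and -1.20 ± 0.23 (adjusted p = 0.00103) in Batf3-/- and WT DC1, with no overlap. Srebf1 read 6.76, 6.51 and 6.19 in migratory against 7.10, 7.20 and 6.61 in resident Batf3-/- DC1, and 5.61 and 6.08 in migratory against 6.72, 6.89 and 7.08 in resident WT DC1. Srebf1, which encodes SREBP-1, was lower in migratory WT DC1, with a difference of -1.05 ± 0.23 (adjusted p = 0.00281) and differed by -0.48 ± 0.21 in Batf3-/- DC1 (adjusted p = 0.0907). Srebf2 read 8.88, 8.85 and 7.63 in migratory against 8.96, 9.04 and 8.39 in resident Batf3-/- DC1, and 7.48 and 8.03 in migratory against 8.58, 8.65 and 8.76 in resident WT DC1. Srebf2, which encodes SREBP-2, lay below the resident range on both migratory WT arrays but overlapped in Batf3-/- DC1. Its difference was -0.34 ± 0.31 (adjusted p = 0.418) in Batf3-/- and -0.91 ± 0.34 (adjusted p = 0.0435) in WT DC1. With the array spread as a term the WT sign turned for Srebf1 (0.36) and Srebf2 (1.56, adjusted p = 0.0291). The WT Srebf2 call was also lost without migratory replicate 1 (-0.64) and without any resident WT array (-0.95 to -0.86). In Batf3-/- DC1 the call of Scap was lost without resident replicate 1 or 2 or migratory replicate 3 (-0.57 to -0.42), and that of Insig2 without resident replicate 2 (-0.62). Insig1, the other retention gene and a known SREBP target, differed by 0.05 ± 0.22 in Batf3-/- and 0.10 ± 0.24 in WT DC1 and did not pass.

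Of the 2 lipid carriers, Fabp5 rose and Stard4 did not pass. Fabp5 read 9.45, 9.21 and 9.93 in migratory against 6.88, 6.38 and 6.60 in resident Batf3-/- DC1, and 9.78 and 8.94 in migratory against 6.69, 6.21 and 6.22 in resident WT DC1. Every migratory array of Fabp5 lay more than 2 units above every resident one. Fabp5 encodes a cytosolic carrier of fatty acids, and its migratory mean was 7.51-fold the resident mean in Batf3-/- (difference 2.91 ± 0.26, adjusted p = 3.14e-06) and 7.95-fold in WT DC1 (2.99 ± 0.29, adjusted p = 7.97e-06). Its second probe set gave 2.97 and 3.09, and the difference among arrays sharing a title code was 2.57 to 3.33 in Batf3-/- and 2.74 to 3.09 in WT DC1. Stard4, a cytosolic sterol carrier, differed by -0.05 ± 0.16 in Batf3-/- and 0.28 ± 0.18 in WT DC1.

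All 3 genes of fatty acid synthesis were lower in migratory WT DC1, with a median difference of -1.84, and 2 of 3 were lower in migratory Batf3-/- DC1, with a median of -1.21. Acly read 7.71, 7.75 and 6.81 in migratory against 8.08, 7.98 and 7.51 in resident Batf3-/- DC1, and 6.23 and 7.00 in migratory against 7.65, 7.71 and 7.92 in resident WT DC1. Acly, which makes cytosolic acetyl-CoA from citrate, lay below the resident range in WT DC1, with a difference of -1.15 ± 0.31 (adjusted p = 0.0086), and the Batf3-/- difference of -0.43 ± 0.27 did not pass. Acaca read 6.00, 6.09 and 5.12 in migratory against 7.18, 6.97 and 6.69 in resident Batf3-/- DC1, and 4.95 and 5.20 in migratory against 6.90, 6.83 and 7.01 in resident WT DC1. Acaca, which makes malonyl-CoA, was lower on every migratory array, with differences of -1.21 ± 0.23 in Batf3-/- and -1.84 ± 0.26 in WT DC1 (adjusted p = 0.00126 and 0.000123). Fasn read 6.84, 6.91 and 5.60 in migratory against 8.41, 8.67 and 8.07 in resident Batf3-/- DC1, and 6.14 and 6.62 in migratory against 8.66, 8.75 and 8.82 in resident WT DC1. Fasn, which joins malonyl units into palmitate, was below the resident range on all migratory arrays. Its migratory mean was 0.262 times the resident mean in Batf3-/- (difference -1.93 ± 0.30, adjusted p = 0.000309) and 0.195 times in WT DC1 (-2.36 ± 0.34, adjusted p = 0.00015). With the array spread as a term the WT differences were 0.98 for Acly, -0.28 for Acaca and 0.011 for Fasn, none of which passed, whereas Acaca and Fasn remained lower in Batf3-/- DC1. Without migratory WT replicate 1 the Acly difference was -0.76 with an adjusted p of 0.121.

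Of the 6 desaturases and elongases other than Elovl6, 3 fell and 0 rose in migratory Batf3-/- DC1, and 4 fell and 1 rose in migratory WT DC1. Scd2 read 7.08, 7.42 and 6.66 in migratory against 8.72, 8.32 and 8.98 in resident Batf3-/- DC1, and 6.10 and 6.99 in migratory against 9.02, 9.04 and 9.32 in resident WT DC1. Scd2, a stearoyl-CoA desaturase, was below the resident range on every migratory array, with differences of -1.62 ± 0.26 in Batf3-/- and -2.58 ± 0.29 in WT DC1 (adjusted p = 0.000389 and 2.72e-05). Scd1 read 5.23, 6.00 and 4.96 in migratory against 4.59, 5.08 and 4.90 in resident Batf3-/- DC1, and 6.36 and 7.01 in migratory against 6.18, 5.16 and 5.27 in resident WT DC1. Scd1, the second stearoyl-CoA desaturase, moved the opposite way in WT DC1, where it rose by 1.15 ± 0.34 (adjusted p = 0.0155), with resident replicate 1 close to the migratory arrays. The Batf3-/- difference of Scd1 was 0.54 ± 0.31 (adjusted p = 0.197), and its WT call was lost without resident replicate 2 or 3 or migratory replicate 2 (0.82 to 1.02).

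Elovl5 read 8.43, 8.45 and 7.28 in migratory against 9.62, 9.63 and 9.53 in resident Batf3-/- DC1, and 7.88 and 7.95 in migratory against 9.89, 9.58 and 9.52 in resident WT DC1. Elovl5, which elongates polyunsaturated chains, lay below the resident range on every migratory array, with differences of -1.54 ± 0.26 in Batf3-/- and -1.75 ± 0.29 in WT DC1 (adjusted p = 0.00057 and 0.000458). Elovl1 read 7.16, 7.51 and 6.61 in migratory against 7.70, 7.98 and 7.53 in resident Batf3-/- DC1, and 6.44 and 6.80 in migratory against 7.92, 7.65 and 8.03 in resident WT DC1. Elovl1, which elongates very long saturated chains, had differences of -0.64 ± 0.23 in Batf3-/- (adjusted p = 0.0438) and -1.25 ± 0.26 in WT DC1 (adjusted p = 0.00176). The Batf3-/- call of Elovl1 was lost without resident replicate 1 or 2 or migratory replicate 1 or 3 (-0.68 to -0.40), and its WT difference was 0.14 with the array spread as a term. Fads1 read 6.80, 7.13 and 7.24 in migratory against 5.81, 6.81 and 7.07 in resident Batf3-/- DC1, and 6.15 and 7.33 in migratory against 7.55, 7.83 and 7.72 in resident WT DC1. Fads1, a desaturase of polyunsaturated chains, passed in WT DC1 (-0.96 ± 0.37, adjusted p = 0.0461) and had an opposite sign in Batf3-/- DC1 (0.50 ± 0.33, adjusted p = 0.269). Its WT call was lost without migratory replicate 1 (-0.38) or any resident WT array (-1.04 to -0.90). Fads2, the other desaturase of these chains, differed by 0.21 ± 0.16 in Batf3-/- and -0.35 ± 0.18 in WT DC1 and did not pass.

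Elovl6, which elongates palmitate to stearate, had its high level in resident WT DC1 alone among the lymph node groups. Elovl6 read 5.09, 5.02 and 4.38 in migratory against 5.76, 5.73 and 5.49 in resident Batf3-/- DC1, and 4.72 and 4.74 in migratory against 8.19, 7.95 and 7.79 in resident WT DC1. All resident WT arrays lay near 8, and all 8 other arrays lay below 6, with both migratory WT arrays among the Batf3-/- ones. The group means were 4.83 ± 0.39 (SD, n = 3) in migratory Batf3-/-, 5.66 ± 0.15 (n = 3) in resident Batf3-/-, 4.73 ± 0.02 (n = 2) in migratory WT and 7.98 ± 0.20 (n = 3) in resident WT DC1. As a description, the resident Batf3-/- mean was 0.201 times the resident WT mean, a log2 difference of -2.32, and among arrays sharing a title code it was -2.43 to -2.22. The migratory minus resident difference was -0.83 in Batf3-/- and -3.24 in WT DC1. Between migratory Batf3-/- and migratory WT DC1, which the choice of the gene did not use, Elovl6 differed by 0.10 ± 0.21 (adjusted p = 0.782, limma). Both of these means lay near the filter level of 4.82, so a fall without Batf3 in migratory cells could hardly show.

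**Figure D3:**
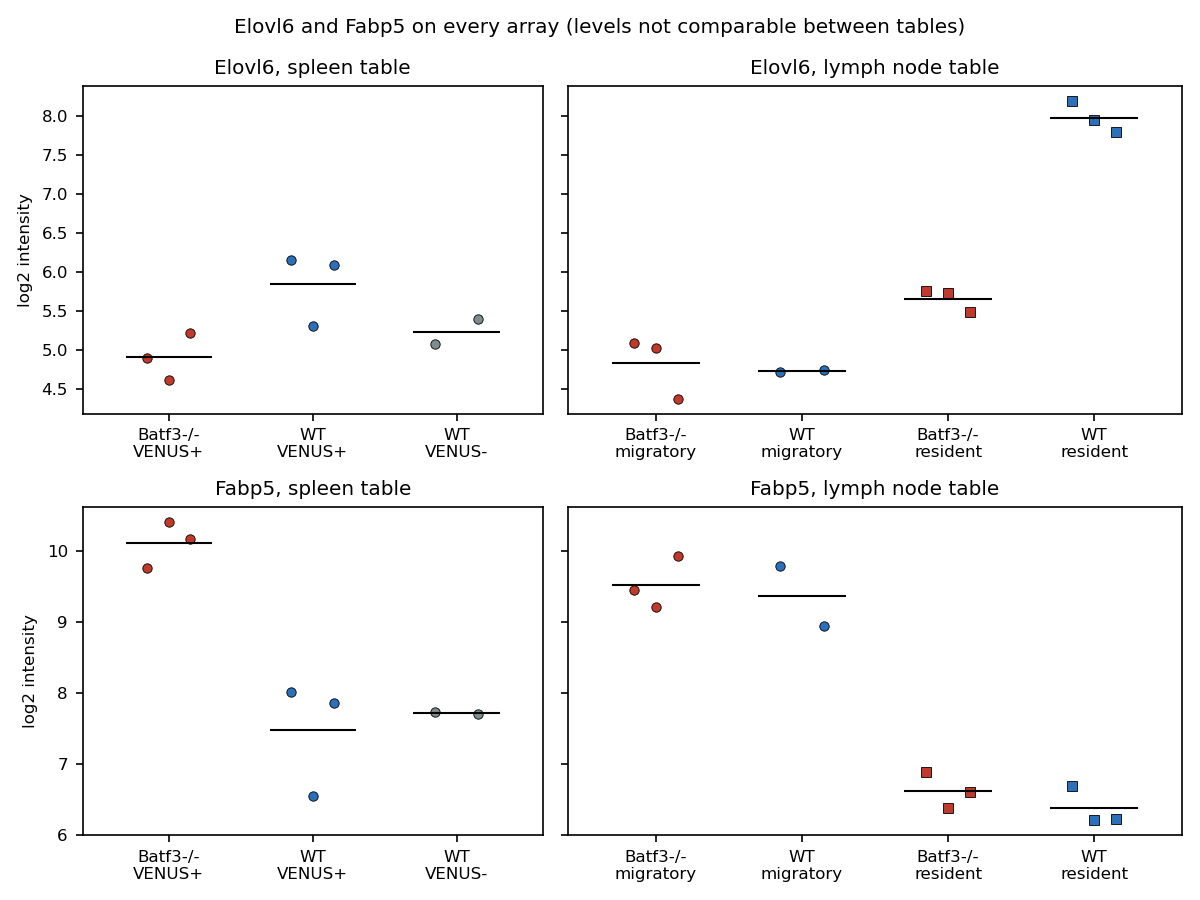
Log2 intensity of Elovl6 and Fabp5 on every array (vertical axis) by group (horizontal axis), with the lymph node and spleen tables in separate panels that cannot be set against each other. Points are arrays and bars are group means; Elovl6 lies at 7.79 to 8.19 in resident WT DC1, and Fabp5 at 9.76 to 10.40 in Batf3-/- spleen DC1 against 6.55 to 8.01 in WT Irf8VENUS+ spleen DC1.

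Apart from Elovl6, 0 of 32 members passed between resident Batf3-/- and resident WT DC1 (limma), where 1.84% of all genes passed. Of the 32, 3 had an unadjusted p under 0.05, as did 1146 of all 11931 genes. The differences of the 32 ran between -1.14 and 0.33, with a median of -0.0043 against -0.01 over all genes. The 3 lowest were fatty acid desaturases. Fads1 differed by -1.14 ± 0.33 (adjusted p = 0.136), with Batf3-/- arrays at 5.81, 6.81 and 7.07 against WT arrays at 7.55, 7.83 and 7.72. Fads2 differed by -0.59 ± 0.16 (adjusted p = 0.112) and Scd1 by -0.68 ± 0.31 (adjusted p = 0.509). With the title code as a block Fads1 passed (adjusted p = 0.0202), and its differences within a code ran between -1.74 and -0.66. Markers moved in the same comparison. The 6 measured genes of migratory dendritic cells had a mean level of 7.35 to 8.72 in resident Batf3-/-, against 6.34 to 7.05 in resident WT DC1, and 2 of the 6, Ccl22 and Ccr7, passed and were higher. Of 5 tested cDC2 markers Clec10a and Mgl2 passed and were higher and 0 passed as lower, but the median difference of the 5 was -0.36. Of 8 DC1 markers Cadm1 and Xcr1 passed and were lower, and the median of the 8 was -0.57. Cldn1, the 1 tested Langerhans cell marker, was higher (1.35), as was Pecam1, of 5 tested stromal and endothelial markers. Their part in the levels of Elovl6, Fads1 and the other members was not tested.

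Between migratory Batf3-/- and migratory WT DC1, Scd1 passed and fell, and 0 of the other 32 members passed, where 9.41% of all genes did, 7.13% higher and 2.28% lower. Scd1 differed by -1.29 ± 0.34 (adjusted p = 0.0376), with all 3 Batf3-/- arrays below both WT arrays, as listed above. The differences of the 33 ran between -1.29 and 0.81, with a median of 0.25 against 0.10 over all genes. Scap (0.68 ± 0.22, adjusted p = 0.065), Srebf1 (0.64 ± 0.23, adjusted p = 0.0914) and Stard4 (-0.52 ± 0.18, adjusted p = 0.0773) were among those that did not pass. The count changed with single arrays. Without replicate 3 of migratory Batf3-/- DC1 13 members passed, 12 of them higher, where 3560 of 11753 genes did, 2601 of them higher. Without migratory Batf3-/- replicate 1, 0 members did, where 227 of 11907 genes passed. The Scd1 difference was -1.62 to -0.96 without single arrays, and its call was lost without migratory WT replicate 1 or 2 or migratory Batf3-/- replicate 1. The arrays share title codes across these groups. With the code as a block 6 members passed, as did 2464 of 11931 genes, 1865 of them higher and 599 lower. Of the 6 members, Scd1 was lower (-1.18, adjusted p = 0.0339, limma). Acaca, Acly, Ebp, Scap and Srebf1 were higher (0.79, 0.94, 0.83, 0.74 and 0.72). Within the 2 codes that hold both groups, the difference was -1.13 to -1.01 for Scd1, 0.89 to 1.05 for Acaca and 0.75 to 1.48 for Acly. It was 0.40 to 1.35 for Ebp, 0.70 to 0.99 for Scap and 0.43 to 1.15 for Srebf1. Most tested members were of 1 sign over these codes, nearly all of them higher. Besides those named, they included Mvd (1.09 to 1.12), Sqle (0.92 to 1.11), Srebf2 (0.82 to 1.40) and Nsdhl (0.52 to 1.75). Stard4 was lower (-0.40 to -0.35), and Fabp5, Fads1, Fads2, Hmgcs1, Msmo1 and Sc5d changed sign between the codes. With arrays weighted by quality 8 members passed, all higher, where 2294 of 11931 genes did, 1794 of them higher. Scd1 did not pass in that limma fit (adjusted p = 0.0947). Of 8 DC1 markers 4 were lower and 1, Irf8, was higher in migratory Batf3-/- DC1, and 2 of 7 B cell markers were lower. Of 3 tested macrophage and monocyte markers C1qa and C1qb were higher, as was Cldn1, the 1 tested Langerhans cell marker. Relb, of 6 tested migratory dendritic cell genes, was higher, and Ccl19, of 5 tested stromal and endothelial markers, was lower. The part of these markers in the differences was not tested.

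The Batf3 difference itself was compared between migratory and resident cells with an interaction term, where 1.24% of all genes passed. Apart from Elovl6, 0 of 32 members passed (limma), and 5 of the 32 had an unadjusted p under 0.05, as did 2285 of all 11931 genes. The lowest adjusted p among the 32 members was that of Scap (0.88 ± 0.29, adjusted p = 0.137). With the title code as a block Fads1 passed (1.34, adjusted p = 0.0469). Without migratory Batf3-/- replicate 3, 4 of all 33 members passed, Elovl6 among them, each with a positive term. Over all genes 1716 of 11753 passed in that fit, 1353 of them with a positive term.

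**Figure D4:**
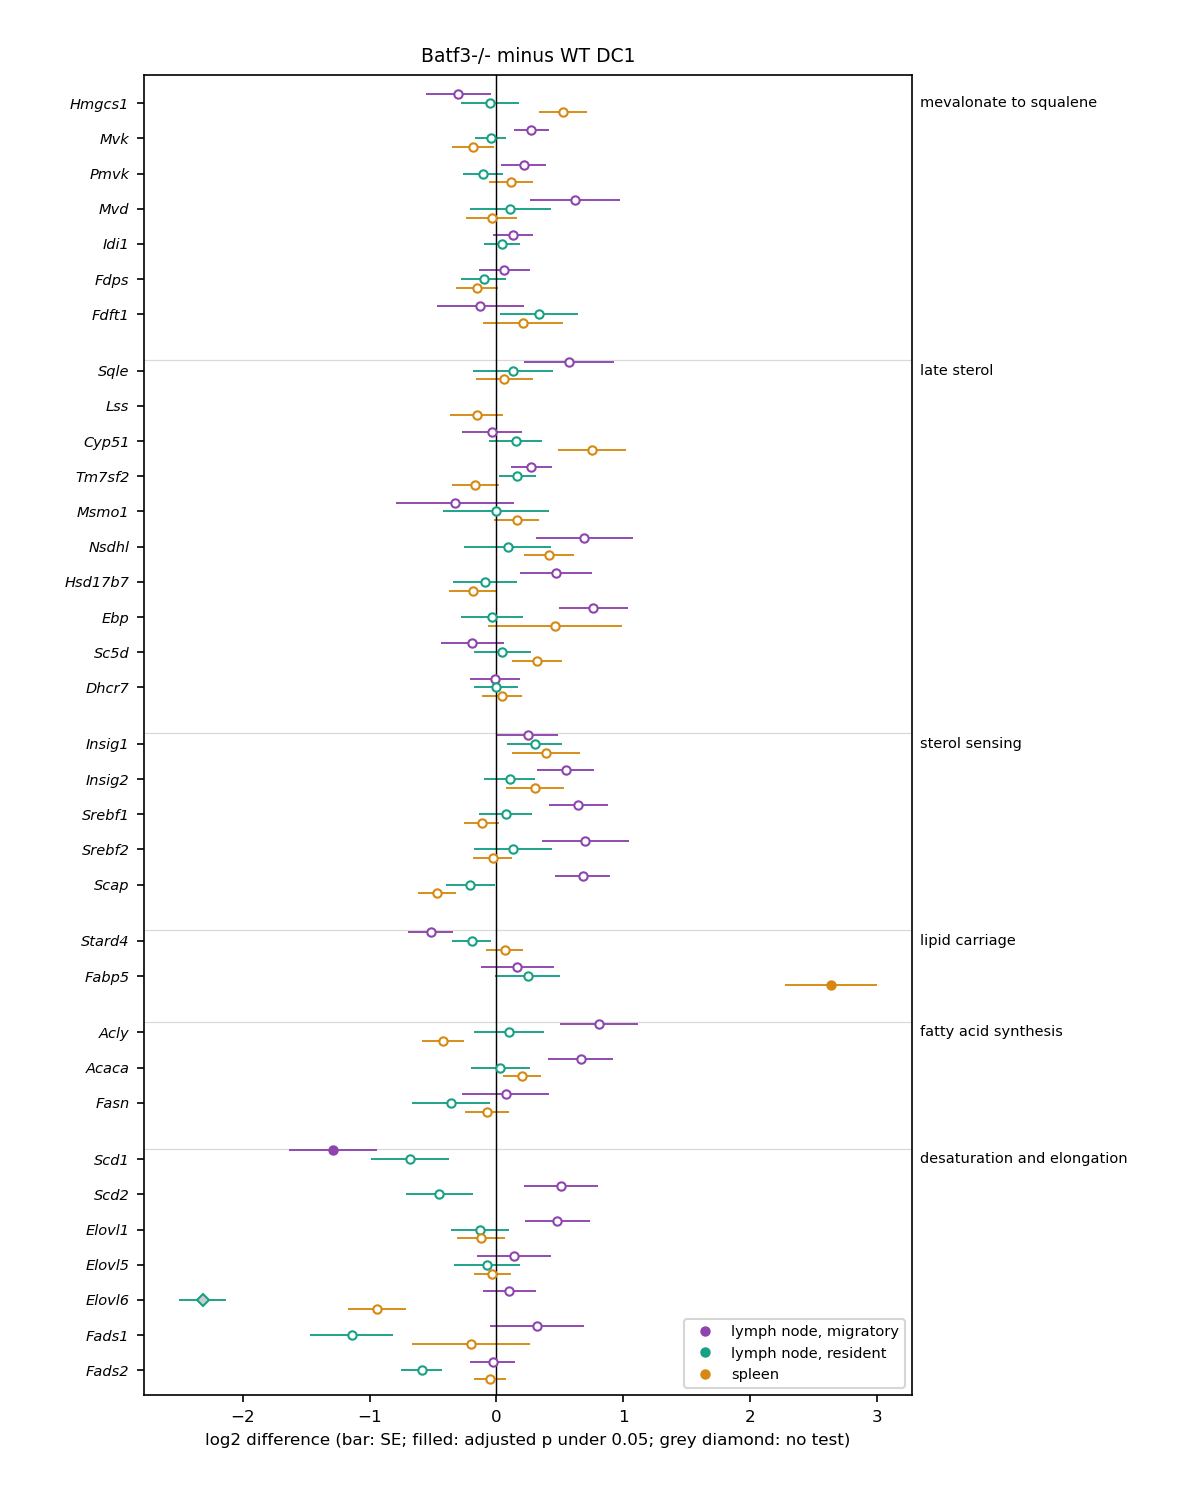
Difference between Batf3-/- and WT DC1 for each tested member on the log2 scale (horizontal axis), for resident and migratory lymph node cells and for spleen Irf8VENUS+ cells, with members grouped by step. Points are fitted differences, bars their SE, filled points passed an adjusted p of 0.05 and grey diamonds mark Elovl6 in resident cells, which was not tested; Fabp5 in spleen (2.64) and Scd1 in migratory cells (-1.29) are the filled points.

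In spleen, Fabp5 was higher in Batf3-/- than in WT Irf8VENUS+ DC1, and 0 of the other 30 members passed, where 0.738% of all genes did, 0.435% higher. Fabp5 read 9.76, 10.40 and 10.17 in Batf3-/- Irf8VENUS+ DC1, against 8.01, 6.55 and 7.86 in WT Irf8VENUS+ DC1 and 7.73 and 7.70 in WT Irf8VENUS- DC1. All Batf3-/- arrays lay above all WT arrays, and the mean was 6.22-fold that of WT Irf8VENUS+ DC1, a difference of 2.64 ± 0.36 (adjusted p = 0.0223, limma). It was 2.31 to 2.80 within the 2 sort gates, and 3 further Fabp5 probe sets gave 2.63, 2.44 and 0.86. Its call was lost without WT Irf8VENUS+ replicate 3 or any 1 Batf3-/- array (2.41 to 2.80, adjusted p 0.0862 to 0.134). The measured genes of migratory dendritic cells had a mean level of 7.93 to 8.47 in Batf3-/-, against 6.80 to 7.22 in WT Irf8VENUS+ and 7.35 to 7.80 in WT Irf8VENUS- DC1. Of these genes, 1 of 6 (Fscn1) passed and was higher. Of 7 tested DC1 markers Cadm1 and Naaa passed and were lower, and the median of the 7 was -0.41. Cldn1, of 2 tested Langerhans cell markers, was higher. The part of these markers in the Fabp5 difference was not tested. In lymph nodes Fabp5 differed between Batf3-/- and WT by 0.16 ± 0.29 in migratory and 0.25 ± 0.26 in resident cells.

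Elovl6 in spleen read 4.90, 4.62 and 5.22 in Batf3-/- Irf8VENUS+ DC1, against 6.16, 5.30 and 6.09 in WT Irf8VENUS+ and 5.07 and 5.40 in WT Irf8VENUS- DC1. The Batf3-/- arrays lay below all WT Irf8VENUS+ arrays and overlapped the WT Irf8VENUS- ones, and the difference of -0.94 ± 0.23 did not pass (adjusted p = 0.15). Hmgcs1 read 7.84, 8.00 and 7.76 in Batf3-/- Irf8VENUS+ DC1, against 7.11, 7.64 and 7.26 in WT Irf8VENUS+ and 8.28 and 7.98 in WT Irf8VENUS- DC1. The Batf3-/- arrays of Hmgcs1 lay above the WT Irf8VENUS+ ones and overlapped the WT Irf8VENUS- ones, with a difference of 0.53 ± 0.19 from WT Irf8VENUS+ DC1 (adjusted p = 0.37). Nsdhl read 7.51, 7.47 and 7.19 in Batf3-/- Irf8VENUS+ DC1, against 6.65, 7.13 and 7.15 in WT Irf8VENUS+ and 7.40 and 7.57 in WT Irf8VENUS- DC1, a difference of 0.41 ± 0.20 (adjusted p = 0.526). Batf3-/- arrays of Nsdhl lay above all WT Irf8VENUS+ arrays and overlapped the WT Irf8VENUS- ones. Srebf2 read 8.50, 8.42 and 8.11 in Batf3-/- Irf8VENUS+ DC1, against 8.52, 8.26 and 8.34 in WT Irf8VENUS+ and 8.57 and 8.58 in WT Irf8VENUS- DC1. Fasn read 7.48, 7.53 and 7.26 in Batf3-/- Irf8VENUS+ DC1, against 7.30, 7.46 and 7.74 in WT Irf8VENUS+ and 7.50 and 7.55 in WT Irf8VENUS- DC1. Batf3-/- arrays overlapped the WT Irf8VENUS+ ones for both genes, while those of Srebf2 lay just below both WT Irf8VENUS- arrays. Elovl5 read 9.87, 9.86 and 9.61 in Batf3-/- Irf8VENUS+ DC1, against 9.65, 9.88 and 9.91 in WT Irf8VENUS+ and 9.83 and 9.94 in WT Irf8VENUS- DC1, and its arrays overlapped too. Without Fabp5 and Elovl6, the differences of the members between Batf3-/- and WT Irf8VENUS+ DC1 ran between -0.47 (Scap) and 0.76 (Cyp51), with adjusted p-values of 0.29 and 0.359. Fasn differed by -0.08 ± 0.18, Srebf2 by -0.03 ± 0.15 and Elovl5 by -0.03 ± 0.14. Scd1 read 3.90 to 5.10 on the spleen arrays, mostly below the filter level of 5.04.

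Between WT Irf8VENUS+ and WT Irf8VENUS- spleen DC1, 0 of 31 members passed by limma, where 0.0233% of all genes did. Of the 31, 3 had an unadjusted p under 0.05, as did 1018 of all 12875 genes. The differences ran between -1.05 (Cyp51) and 0.48 (Elovl6), and the lowest adjusted p was that of Hmgcs1 (-0.75 ± 0.22, adjusted p = 0.512). These estimates carry the gate term and differ from plain differences of means.

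Other genes of lipid handling were counted from a list of 44, of which 28 were tested in lymph nodes and 24 in spleen. Between migratory and resident cells, 4 rose (14.3%) and 8 fell (28.6%) in Batf3-/- DC1, where 14.1% of all genes rose and 22.6% fell. In WT DC1 3 rose (10.7%) and 12 fell (42.9%), where 16% of all genes rose and 33.2% fell, so both splits lay near those of all genes. Of 6 tested genes of uptake and lysosomal release, 3 fell and 1, Npc2 (0.52, adjusted p = 0.0132), rose in Batf3-/- DC1, and 4 fell and 1, Lpl (0.51, adjusted p = 0.0213), rose in WT DC1. Scarb1, a lipoprotein receptor, differed by -2.83 ± 0.21 in Batf3-/- and -3.24 ± 0.23 in WT DC1, and Lipa, the lysosomal acid lipase, by -1.41 ± 0.16 and -3.13 ± 0.18. Cd36, a fatty acid receptor, differed by -0.84 ± 0.28 in Batf3-/- and -2.25 ± 0.31 in WT DC1. Hsd17b12, an elongation cycle enzyme, differed by -1.85 ± 0.22 and -2.64 ± 0.24, and Abcg1, a sterol exporter, by 1.24 ± 0.22 and 0.66 ± 0.25, in Batf3-/- and WT DC1. In resident Batf3-/- against resident WT DC1, 0 rose and 3 fell, where 1.84% of all genes passed: Cd36 (-2.29 ± 0.28, adjusted p = 0.000681), Lipa (-1.03 ± 0.16, adjusted p = 0.00475) and Hacd2, an elongation cycle enzyme (-0.70 ± 0.16, adjusted p = 0.0436). In migratory Batf3-/- against migratory WT DC1, 6 rose and 0 fell (21.4% and 0%), where 7.13% of all genes rose and 2.28% fell, with Mylip (1.76 ± 0.30, adjusted p = 0.00846), which marks lipoprotein receptors for degradation, and Cpt1a (1.19 ± 0.28, adjusted p = 0.0257), which admits fatty acids to mitochondria, the furthest from 0. In spleen, 0 of the 24 passed in either comparison by limma.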

How the data were processed

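Per the labels' protocols, RNA of sorted DC1 was isolated on micro columns and labelled by a protocol for very low input. In spleen the deposited values were linear intensities, and their log2 was taken here. The deposited lymph node values were log2 intensities. The authors used RMA (background correction, quantile normalization and probe summary), per the submitters' processing notes, with the version not given in the sources used. Gene names came from the array annotation given, with symbols updated through RefSeq gene identifiers. The brightest probe set with 1 symbol stood for a gene, and the filter kept genes with 2 or more arrays at the table median or above (log2 5.04 in spleen, 4.82 in SDLN). Precision is limited by the number of arrays, and neither table gives a background per probe.

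Each table was fitted with limma 3.58.1 in R 4.3.3 (mean-variance trend, all arrays of the table, the sort gate as a term in spleen), with p-values adjusted over all tested genes by Benjamini-Hochberg (threshold 0.05), and the fit was tested on simulated data. Differences are log2 values with the moderated SE. The labels do not tie the arrays of a group to separate mice, so p-values measure only the spread between these arrays, which may be technical. Lymph node arrays of the same replicate number share a title code. Between resident and migratory Batf3-/- DC1 the deviations of same-numbered arrays correlated at 0.416, 0.21 and 0.479. These numbers were taken as pairs only in the fits with a block. The main lymph node fits, with their SEs and adjusted p-values, had no block. In the other lymph node comparisons the correlations did not pair the arrays, and the shared title code is given as a block. The genes named in full were Elovl6, Fabp5, members called in any comparison and the brightest member of each step. The members, lists and rule were chosen with earlier results of these data known. Alternatives were other filters, normalization, probe set rules, array weights, the array spread as a term, fewer arrays and a replicate block.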

Additional observations from a re-analysis of the deposited data

Results flagged for a closer look

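The Batf3 difference of Elovl6 (Batf3-/- minus WT) was 0.10 in migratory and -2.32 in resident lymph node DC1, and the difference between these values, the interaction term, was 2.41 on the log2 scale. It stood out because the 2 cell states gave unlike differences under the same contrast. Elovl6 was chosen for its resident contrast, so the interaction term is a description with no test. Both migratory means, 4.83 in Batf3-/- and 4.73 in WT DC1, lay near the filter level of 4.82. A fall without Batf3 in migratory cells could therefore hardly show. The resident WT arrays read 7.79 to 8.19 and every other lymph node array lay at 4.38 to 5.76. With the array spread as a term in the fit the interaction term was 1.72.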

How the results depend on the processing

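Counts of members passing include Elovl6 unless stated. Its calls in comparisons with resident lymph node arrays are no test, since it was chosen for its level there. Between Batf3-/- and WT spleen DC1 the count was 1, falling to 0 when the fit held just the compared groups or just arrays sorted on CD24 and XCR1, and 0 to 1 without single arrays. Between resident Batf3-/- and WT DC1, Elovl6 aside, it was 0, and Fads1 and Fads2 passed with array weights. Between migratory Batf3-/- and WT DC1 it was 1, 2 after quantile normalization, 8 with array weights (all higher, with Scd1 no longer among them), 0 with just the compared groups in the fit or the array spread as a term, and 0 to 13 without single arrays. For migratory over resident WT DC1 it was 22, 23 after quantile normalization, 24 with just the compared groups in the fit, 6 with the array spread as a term and 15 to 21 without single arrays. For Batf3-/- DC1 it was 17, 15 to 24 over the alternatives and 13 to 19 without single arrays. For the interaction it was 1, 4 with array weights, 0 with the array spread as a term and 1 to 4 without single arrays. For Irf8VENUS+ over Irf8VENUS- it was 0 under every alternative. All-gene counts moved under the same alternatives. Between migratory Batf3-/- and WT DC1 they were 1123 in the main fit, 2294 with array weights and 37 with the array spread as a term. For migratory over resident WT DC1 they were 5870 in the main fit and 1262 with that term. With the array spread as a term the sign of 6 WT migratory differences turned: Acly 0.98, Ebp 0.13, Elovl1 0.14, Fasn 0.011, Srebf1 0.36 and Srebf2 1.56. The cause was not tested; migratory WT arrays also have the narrowest spread, so the term and the group are partly one.

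With the replicate number as a block the counts were 1 in spleen and 6 for migratory Batf3-/- against WT DC1. Over all genes 67 of 12875 and 2464 of 11931 passed there. For migratory over resident cells the member counts were 23 in WT and 19 in Batf3-/- DC1, Elovl6 included. Over all 11931 genes 6364 and 4664 passed there. Elovl6 aside, only Fads1 passed for resident Batf3-/- against WT DC1 and for the interaction. Among the Batf3-/- migratory and resident arrays, which were taken as paired, the block added Ebp and Msmo1 and changed no other call. Lymph node arrays of the other groups share a title code with their number, and the calls the block added there were Fads1 (resident and interaction), Nsdhl (WT) and Acaca, Acly, Ebp, Scap and Srebf1 (migratory). With 2 or 3 arrays a group and no background per probe, small differences of dim genes such as Lss and spleen Scd1 were not detectable.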
